A study of Mus musculus with 6 samples.

Results

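Nuclear-encoded mitochondrial protein genes were followed in C2C12 cells, an immortalised mouse myoblast line that can be turned toward muscle or osteoblast fates. The genes were chosen by symbol: respiratory chain and ATP synthase genes (Nduf, Cox, Atp5, Uqcr and Sdha to Sdhd), mitochondrial ribosomal protein genes (Mrpl and Mrps) and genes of the import machinery (Timm and Tomm). They numbered 203 of the 22753 genes in the deposited count table. Poly-A RNA was sequenced from 3 samples grown for 2 days with 1% DMSO, the solvent, and from 3 samples grown for 2 days with 10 µM of a screening hit, a dimethylquinolinone carrying a phenylimidazole group, here called the compound. The labels name no genetic change in either group.

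Mitochondria make ATP by oxidative phosphorylation. Complexes I to IV pass electrons from NADH and succinate to oxygen and complexes I, III and IV pump protons, which then drive ATP synthase. A small genome inside the organelle encodes some core subunits. All other subunits, every protein of the mitochondrial ribosome and the translocases that admit them (TOM in the outer membrane, TIM in the inner) come from nuclear genes. Many of these nuclear genes are known targets of the transcription factors NRF1 and GABP, whose DNA-binding subunit GABPA belongs to the ETS family. Muscle depends on this set for sustained contraction.

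The promoters of these genes are shown first, because GABPA itself is the neighbour of one of the genes that changed. RefSeq (GRCm38.p6) gave 182 promoter windows, each from 250 bases before to 50 after a start, for 168 of the 203 genes. The ETS motif CCGGAAG, searched on both strands, was present in 56 of them, or 30.8%, against 11.7% of the 19362 windows of all table genes and 8.86% of all 32851 RefSeq windows. The YY1 motif AAGATGGCG was in 9.34% of the windows, against 1.90% over table genes and 1.40% over RefSeq. For the core of the NRF1 motif, CGCATGCG, the shares were 10.4%, 2.61% and 1.87%. With a G before and a C after this core they were 5.49%, 1.39% and 0.971%. The TATAAA box was in 8.79%, 12.0% and 13.6%, the CCAAT box in 40.1%, 37.7% and 37.4%, and the GC box GGGCGG in 48.4%, 47.4% and 35.7%. These are all 7 motif forms that were searched. Which of them are described further, and the shorter form of the NRF1 motif, were chosen after the shares had been seen. Apart from the NRF1 forms, none of these motifs holds another. Median GC content was 58.5% in the gene set, 57.0% over table genes and 52.7% over RefSeq. Within the set the ETS share ran from 12.2% of 41 Nduf windows to 42.9% of 21 Cox windows and 40.7% of 27 Mrps windows; the families with fewer than 10 windows, Sdh, Tomm and Uqcr, stood at 66.7%, 44.4% and 40.0%.

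**Figure D1:**
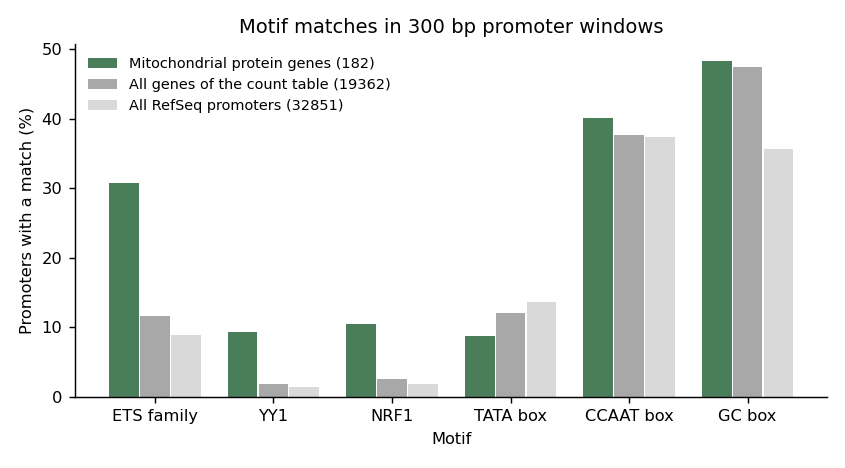
Share of 300 bp promoter windows with a match to each motif on either strand (y axis, percent; x axis, motif), for mitochondrial protein genes, all genes of the count table and all RefSeq promoters. The ETS bar of the mitochondrial set reaches 30.8%, against 11.7% and 8.86%, while the CCAAT bars stand at 40.1%, 37.7% and 37.4%.

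Of the 16 genes described by name under the selection rule, 11 had a promoter window and 6 of these held an ETS match. Each match is printed on the strand of the gene with the motif, or its reverse complement, in capitals. It lay 61 bases before the start in Atp5j, 103 in Cox20, 34 in Mrpl48 (one of its RefSeq starts) and 10 in Uqcrh. Ndufs3 had one 27 bases before the start and a second that began at base 2 of the transcript. In Timm10b it began at base 37 of the transcript, at the edge of the window. A match is a stretch of letters and not a measured binding site.
Atp5j (chr16:84835022-84835046, minus strand): ctgagggacCCGGAAGcacttaccc
Cox20 (chr1:178319041-178319065, plus strand): cagggcgggCTTCCGGacagcccca
Ndufs3 (chr2:90904733-90904757, minus strand): cgcgtccgcCCGGAAGaagagtcac
Ndufs3 (chr2:90904705-90904729, minus strand): acatttccaCTTCCGGtccgtgccc
Uqcrh (chr4:116075065-116075089, minus strand): tatgccgcaCTTCCGGccaggtcgc
Mrpl48 (chr7:100583149-100583173, minus strand): ttttaaaaaCTTCCGGaaccaagat
Timm10b (chr7:105640472-105640494, plus strand): gagagtttaCTTCCGGggcgact

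Atp5j and Gabpa are transcribed away from each other, and 147 bases separate their nearest RefSeq starts (84834976 on the minus strand for Atp5j, 84835124 on the plus strand for Gabpa). The 100 of these bases that carry no UTR annotation are printed on the strand of Atp5j. In the count table the intervals of the genes overlap, since Gabpa begins at 84834925 and Atp5j reaches 84835625. The printed bases lie inside both intervals. Capitals mark, in this order, a match to the NRF1 core, to YY1 and to the ETS motif, which GABPA itself recognises.
Atp5j and Gabpa (chr16:84835024-84835123, minus strand): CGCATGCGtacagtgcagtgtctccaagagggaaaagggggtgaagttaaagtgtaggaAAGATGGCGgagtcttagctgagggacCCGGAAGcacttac

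The libraries held 493406 to 952813 counts in the table, which lists nearly only protein-coding genes. The full depth of sequencing cannot be read from these totals. DMSO replicate 3 had the highest total, and its log2 CPM correlated with DMSO replicates 1 and 2 at 0.951 and 0.960 over the 2440 tested genes, where these correlated with each other at 0.975; whether each gene that passed also did so without it is given below. The labels do not say whether samples were separate cultures, so the spread behind each p-value may be only technical. All 7 myoblast markers had counts in at least 1 library, summing to 84 to 161 in DMSO and 78 to 95 with the compound. Des had the most, with 44, 31 and 57 counts in DMSO and 52, 67 and 49 with the compound. Exons of Des, Msc and the osteoblast marker Runx2 are overlapped by opposite-strand genes (Gm15179, Gm9947 and Runx2os1), a limit described below. Myf5 had only 3, 0 and 2 counts in DMSO and 3, 1 and 0 with the compound. Of the 3 that could be tested, Des was higher and Msc lower (edgeR adjusted p = 0.0160 and 0.0467). Msc had 23, 29 and 39 counts in DMSO and 9, 6 and 10 with the compound. Msc met the minimum of the filter on low counts in all DMSO libraries but not in compound replicate 2. It thus entered the test through the group where it was high. When each of the 6 libraries was left out in turn, Des passed in 3 refits and Msc in 1. The 5 markers of differentiated muscle summed to 46 to 62 in DMSO and 40 to 50 with the compound, and neither of the 2 tested passed. The 5 osteoblast markers summed to 21 to 57 and 22 to 27. Among them Runx2, a transcription factor gene, had 34, 21 and 57 counts in DMSO and 26, 20 and 24 with the compound, and 3 were at 0 in every library, while the 4 adipocyte markers summed to at most 2. Of all tested genes, 18.0% passed the threshold in edgeR.

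Few reads were filed under mitochondrial protein genes. Counts are not corrected for gene length here. The 203 genes together held 0.846% to 0.963% of all counts in the DMSO libraries and 0.689% to 0.743% in those with the compound. Their median mean count over the 6 libraries was 0.667. In 112 genes the mean was under 1, and 40 genes had 0 counts everywhere; by counting error alone a true value of as many as 3 counts, or 3.15 to 6.08 CPM (counts scaled to 1000000 per library), could give 0. Among the genes with little or nothing, named after their values were seen, were core parts of the respiratory chain. Cox4i1, a complex IV subunit found in most tissues, had a mean count of 0.833, and Ndufv1, the NADH-binding subunit of complex I, of 0.167. Cox7a2, another complex IV subunit, had 0, and Atp5a1, the alpha subunit of ATP synthase, reached 6 to 10 counts per library. Whether such a value measures the level of the transcript was not tested.

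Counts lay where another gene runs on the opposite strand. The Chr, Start and End interval of 52 genes (25.6%) overlapped that of another row, and these 52 held 81.3% of the set's counts. By GENCODE M21 exons, 70 genes (34.5%) overlapped an exon of an opposite-strand gene and held 95.8% of the counts, while the 132 without such an overlap held 3.72%. Over the whole table, 23.5% of genes had such an overlap, with 91.8% of counts. All 13 genes whose mean count was 50 or more had a protein-coding gene on the opposite strand. Without overlap the highest mean count was 16.0, under Atp5b, the beta subunit of ATP synthase. The median mean count was 5.00 in the 32 genes with an exon overlap of 200 bp or more, 1.00 in the 38 with a shorter one and 0.500 in those with none. The arrangement was head-to-head, with overlapping 5′ ends, in 35 genes, tail-to-tail in 27, and one inside the other in 8. Head-to-head genes held 39.9% and tail-to-tail genes 55.6% of the set's counts. The labels describe a stranded library kit, but the strand setting of the authors' counting is not given in the sources used here. From which gene of such a pair the reads filed under a name came is therefore not known. Values below, and those of the cell type markers above, are counts filed under a gene's name.

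**Figure D2:**
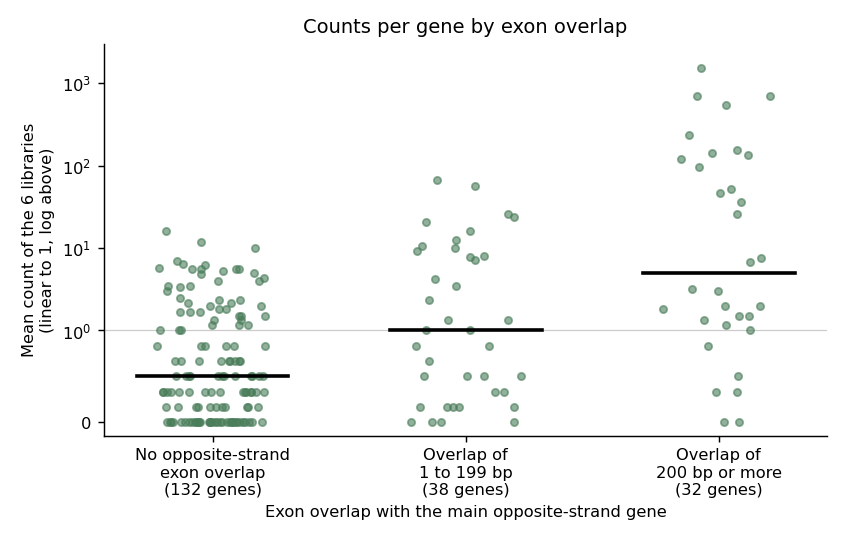
Mean count of the 6 libraries (y axis, linear up to 1 and logarithmic above) for each gene, grouped by the exon overlap with its main opposite-strand gene (x axis); each point is a gene and the black line the median. Genes without overlap stay at or under 16.0, and the 4 highest points, up to 1521, all have an overlap of 200 bp or more.

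In some pairs, described after their values were seen, both genes encode mitochondrial proteins, and the counts stood under only one or mostly one of them. Mrpl47, of the large ribosomal subunit, had a mean count of 543, and Ndufb5, a complex I subunit that starts opposite it with 616 bp of exon overlap, had 0 in every library. Mrpl46, also of the large subunit, had 66.8 and its head-to-head partner Mrps11, of the small subunit, 4.17. Tomm20l had 9.33 and Timm9, a small import chaperone gene with a 49 bp tail-to-tail overlap, had 0.

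After the filter on low counts 24 of the 203 genes (11.8%) could be tested, against 10.7% of the whole table. With the compound 1 was higher and 4 were lower, or 20.8% of those tested, near the 18.0% of all tested genes; by direction the background was 7.50% higher and 10.5% lower. This share is therefore no particular result for the set. The libraries of the groups were fully separate in 8 of the 24 (33.3%), and in 36.4% of all tested genes. The median log2 fold change was -0.05, against 0.02 over all tested genes. Of the 24, 19 met the count minimum in all 6 libraries. Tomm40l met it in all DMSO libraries but not in all compound libraries, and Timm8b the reverse, so each entered through the group where it was high. The other 3, Atp5b, Ndufa2 and Ndufs7, met it in some libraries of both groups. The 5 genes that passed were Mrpl24 (higher), Mrpl13, Atp5j, Timm10b and Tomm40l (lower). From here on CPM is scaled to the TMM library size. The TMM factors were 1.04 to 1.14 in DMSO and 0.914 to 0.946 with the compound, so this scaling raised compound values relative to DMSO values. Summed over the 203 genes, the level was 8358 to 8813 CPM in DMSO and 7753 to 8145 CPM with the compound. Mrps25 alone made up 30.1% of the set's counts.

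**Figure D3:**
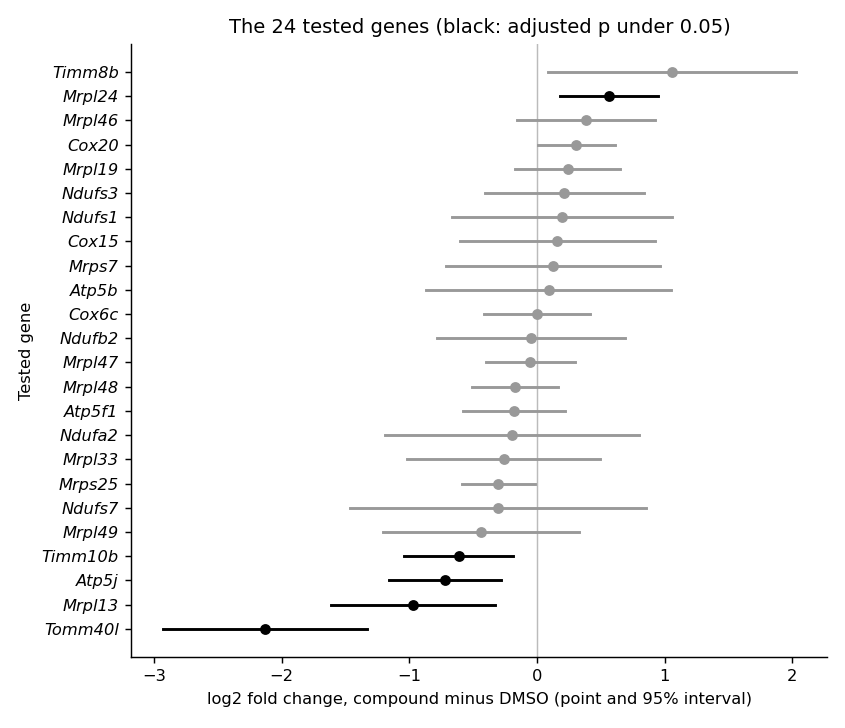
Log2 fold change of each of the 24 tested genes, compound minus DMSO (x axis), with its 95% interval from edgeR's quasi-likelihood fit; genes are ordered by their value. The 5 black points passed an adjusted p of 0.05, and Tomm40l lies farthest from 0, at -2.13.

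None of the 5 complex I genes tested with edgeR, of 45 Nduf genes, passed the threshold. Ndufs3, a core subunit of the peripheral arm, was the only Nduf gene whose mean count reached 50. In replicates 1 to 3 it had 73, 61 and 59 counts in DMSO and 40, 52 and 59 with the compound; counts of other genes follow the same order. In CPM the ranges were 56.6 to 127 and 90.0 to 122, and the groups overlapped. Its log2 fold change was 0.22 ± 0.29 (SE; edgeR adjusted p = 0.663), with a 95% interval from -0.40 to 0.84. Kbtbd4, a ubiquitin ligase adaptor gene that starts opposite it with 88 bp of exon overlap, had a mean count of 374.5 and a log2 fold change of 0.36 ± 0.15 (adjusted p = 0.116). The other 4 tested complex I genes, Ndufs1, Ndufb2, Ndufa2 and Ndufs7, named after their values were seen, had mean counts of 11.8 to 26.2 and log2 fold changes of -0.30 to 0.20.

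Complexes II and III could not be tested, since none of 4 Sdh and 8 Uqcr genes passed the filter. Of the Sdh genes the highest counts were under Sdha, the flavoprotein of succinate dehydrogenase, with 2 in each DMSO library and 0, 2 and 2 with the compound. Of the Uqcr genes they were under Uqcrh, the hinge protein of complex III, which had 10, 2 and 6 in DMSO and 4, 2 and 9 with the compound. No Sdh gene had an annotated exon on the opposite strand, and 2 of the 8 Uqcr genes did.

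In complex IV, Cox20, a chaperone that helps to mature a mitochondrially encoded oxidase subunit, carried 78.9% of the family's counts. It had 668, 672 and 995 counts in DMSO and 628, 599 and 630 with the compound. Scaled to the TMM library size this was 955 to 1159 CPM in DMSO and 1267 to 1414 CPM with the compound. By this scaling every compound library lay above every DMSO library. By share of the total count the groups overlapped, with 668 of 566348 in DMSO replicate 1 and 630 of 542649 in compound replicate 3. The log2 fold change of 0.31 ± 0.14 (SE) missed the threshold (adjusted p = 0.157 in edgeR; 95% interval 0.01 to 0.61). Its last exons overlap 804 bp of Hnrnpu, a nuclear RNA-binding protein gene, whose counts averaged 47.0 with a log2 fold change of -0.10 ± 0.25. Cox6c, a structural subunit overlapped by Vps13b, had 119, 126 and 253 counts in DMSO and 95, 88 and 125 with the compound. Its mean was 219 CPM in DMSO and 220 CPM with the compound, and the 95% interval of its log2 change was -0.42 to 0.42. Cox15, which makes the haem A of complex IV and was named after its value was seen, had a log2 fold change of 0.16 ± 0.36.

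In ATP synthase, counts under Atp5j fell. Atp5j encodes a subunit of the peripheral stalk, which holds the catalytic head still. It had 164, 181 and 340 counts in DMSO and 95, 97 and 65 with the compound. These were 303 ± 21.3 CPM in DMSO and 185 ± 43.3 CPM with the compound (SD, n = 3), and no compound library reached the lowest DMSO library. Atp5j was 1.65-fold lower, a log2 change of -0.72 ± 0.21 (SE; edgeR adjusted p = 0.0250; 95% interval -1.16 to -0.28). Gabpa, which shares its start region, was lower too. Its counts were 392, 354 and 434 in DMSO and 161, 167 and 170 with the compound, a log2 change of -0.65 ± 0.19 (adjusted p = 0.0275), and the lowest DMSO library lay above every compound library. Gabpa still passed without DMSO replicate 3, and lost its call without any other single library (adjusted p up to 0.107). The exons of the pair overlap by 397 bp. Without DMSO replicate 3 Atp5j still passed; without DMSO replicate 2 or any single compound library it did not, with adjusted p of up to 0.129 and log2 changes of -0.83 to -0.55 over the libraries left out. Atp5f1, another stalk subunit, had 222, 247 and 457 counts in DMSO and 189, 185 and 133 with the compound. Its groups overlapped, at 385 to 439 CPM and 276 to 425 CPM, and its log2 change was -0.18 ± 0.19 (adjusted p = 0.569). Wdr77, head-to-head with it, had at most 2 counts in a library. Atp5b, named after its values were seen, had a log2 change of 0.09 ± 0.45.

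**Figure D4:**
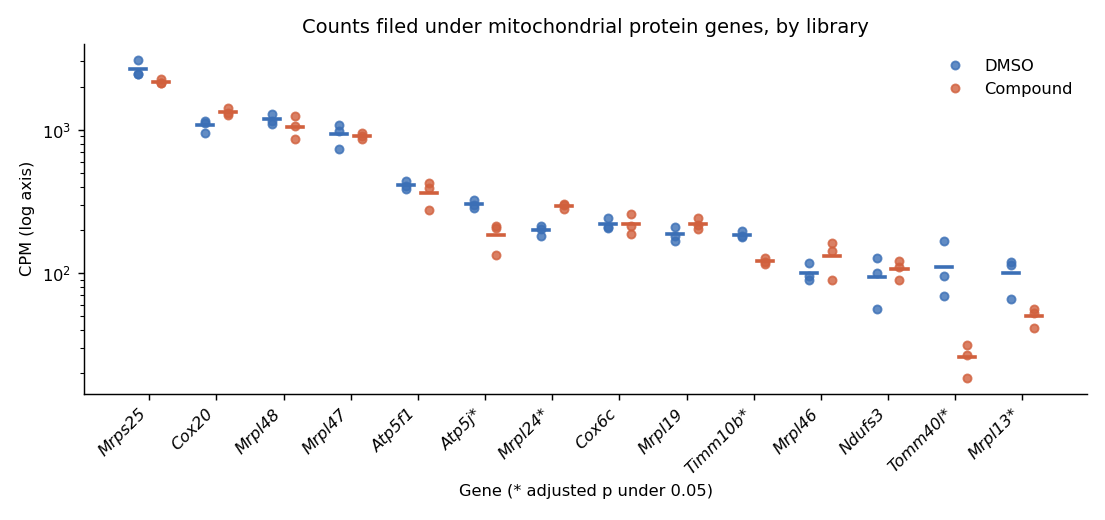
CPM (y axis, logarithmic) in each DMSO and compound library for the 14 tested genes named by rule (x axis, by mean count); points are libraries and bars the means of 3. Asterisks mark the 5 genes with an adjusted p under 0.05, and for these the DMSO and compound points do not overlap.

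Among large-subunit genes of the mitochondrial ribosome, 1 of 8 tested was higher and 1 lower. Mrpl24 had 123, 123 and 190 counts in DMSO and 125, 142 and 146 with the compound. In CPM it rose from 200 ± 15.8 to 295 ± 11.8 (SD, n = 3), or 1.48-fold, and every compound library lay above every DMSO library. Its log2 change was 0.57 ± 0.18 (SE; edgeR adjusted p = 0.0400). Rrnad1, which ends opposite Mrpl24 with 594 bp of exon overlap, had a mean count of 985 and a log2 change of 0.33 ± 0.19 (adjusted p = 0.272). Mrpl24 kept its call without DMSO replicate 3 and lost it without any other single library, with adjusted p of up to 0.139, and with no filter (0.326).

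Mrpl13 had 69 counts in each DMSO library and 25, 25 and 20 with the compound. Its level was 100 ± 29.4 CPM in DMSO and 50.2 ± 7.75 CPM with the compound (SD, n = 3). DMSO replicate 3, at 66.2 CPM, was the nearest to the compound libraries, which reached 56.3 CPM. Mrpl13 was 1.96-fold lower, with a log2 change of -0.97 ± 0.30 (SE; edgeR adjusted p = 0.0365). Without DMSO replicate 3 the change was -1.23 (adjusted p = 0.000919), while without any other single library the call was lost (adjusted p up to 0.128). Mtbp, an MDM2-binding protein gene that starts opposite Mrpl13, had 18, 21 and 20 counts in DMSO and 9, 6 and 2 with the compound; its log2 change of -1.17 ± 0.54 missed the threshold (adjusted p = 0.156).

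The best counted large-subunit genes did not pass. Mrpl48 had 634, 698 and 1348 counts in DMSO and 469, 587 and 414 with the compound, and Mrpl47 had 627, 597 and 770 against 402, 405 and 456. Their log2 changes were -0.17 ± 0.16 and -0.05 ± 0.16 (SE), with 95% intervals of -0.51 to 0.17 and -0.40 to 0.30, and the groups overlapped in both. Rab6a, a Golgi GTPase gene that starts opposite Mrpl48 with 708 bp of exon overlap, had a mean count of 10.2. D630004N19Rik, which lies inside the interval of Mrpl48, had 0 in every library. Actl6a, a chromatin remodelling gene that ends opposite Mrpl47, had 101 and a log2 change of 0.76 ± 0.29 (adjusted p = 0.0881). Mrpl19 stood at 169 to 210 CPM in DMSO and 203 to 241 CPM with the compound, and its tail-to-tail partner Gcfc2, with 1962 bp of exon overlap, had a log2 change of 0.58 ± 0.20 (adjusted p = 0.0597). The log2 change of Mrpl19 was 0.24 ± 0.19, and that of Mrpl46 was 0.38 ± 0.25 (adjusted p = 0.430 and 0.339). Mrpl33, whose identifier has no strand in M21, and Mrpl49 had log2 changes of -0.26 and -0.44 and were named after their values were seen.

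Mrps25, of the small ribosomal subunit, had the highest count of the whole set and 96.0% of the Mrps counts. It had 1413, 1486 and 3204 counts in DMSO and 941, 998 and 1085 with the compound. Its level was 2662 ± 359 CPM in DMSO and 2160 ± 78.7 CPM with the compound (SD, n = 3), and the groups did not overlap. The log2 change of -0.30 ± 0.13 (SE) missed the threshold (adjusted p = 0.139 in edgeR; 95% interval -0.59 to -0.02), whereas the authors' deposited table lists it as lower with an adjusted p of 0.0421. DMSO replicate 3, at 3076 CPM, was above the other 2 DMSO libraries, and without it the log2 change was -0.19. Nr2c2, an orphan nuclear receptor gene, ends opposite Mrps25 with 4590 bp of exon overlap, the longest among the named genes. It had a mean count of 77.7 and a log2 change of 0.22 ± 0.25. The only other tested Mrps gene, Mrps7, named after its values were seen, had a log2 change of 0.12 ± 0.39.

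Of the 3 import genes tested, Tomm40l and Timm10b fell and Timm8b did not pass. Tomm40l, which encodes a relative of the TOM channel protein, had 40, 58 and 175 counts in DMSO and 12, 15 and 9 with the compound. Its DMSO libraries stood at 69.4, 96.0 and 168 CPM and its compound libraries at 27.0, 31.7 and 18.7 CPM. The lowest DMSO library was thus above every compound library, although the DMSO libraries differed widely. Counts under Tomm40l were 4.37-fold lower, a log2 change of -2.13 ± 0.38 (SE; edgeR adjusted p = 0.00109; 95% interval -2.93 to -1.33). The call held in each of the 12 alternatives that refit the table, with log2 changes of -2.40 to -1.68, and was -1.68 without DMSO replicate 3. Tomm40l entered the test through its DMSO libraries, the group where it was high, so its call in these refits gives no support of its own. Nr1i3, the constitutive androstane receptor gene, lies tail-to-tail with Tomm40l and overlaps 3304 bp of its exons. Its counts were 857, 811 and 910 in DMSO and 490, 609 and 560 with the compound, a log2 change of -0.06 ± 0.18 (adjusted p = 0.861).

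Timm10b, of the small chaperones that guide carrier proteins to the inner membrane, had 113, 109 and 186 counts in DMSO and 53, 60 and 56 with the compound. It fell from 185 ± 9.58 to 121 ± 5.53 CPM (SD, n = 3), 1.53-fold, without overlap between groups. Its log2 change was -0.61 ± 0.20 (SE; edgeR adjusted p = 0.0460). This call was close to the threshold: it held without DMSO replicate 3 and when only genes averaging 50 counts or more were tested, and was lost in the 10 other refits, with adjusted p of up to 0.136 and log2 changes of -0.71 to -0.59. Arfip2, which starts opposite Timm10b with 277 bp of exon overlap, had 3 counts in all. Dnhd1, whose interval also overlaps that of Timm10b, had 1, 0 and 0 counts in DMSO and 0 in each compound library. Timm8b, a related chaperone gene named after its values were seen, had 14, 11 and 16 counts in DMSO and 28, 10 and 17 with the compound. Its log2 change of 1.06 ± 0.45 missed the threshold (adjusted p = 0.126), and its groups overlapped. Its partner AU019823, which ends opposite it with 81 bp of exon overlap, was 1.73-fold higher (adjusted p = 0.0317); it passed without DMSO replicate 3 but not without compound replicate 1 or 3 (adjusted p up to 0.165).

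**Figure D5:**
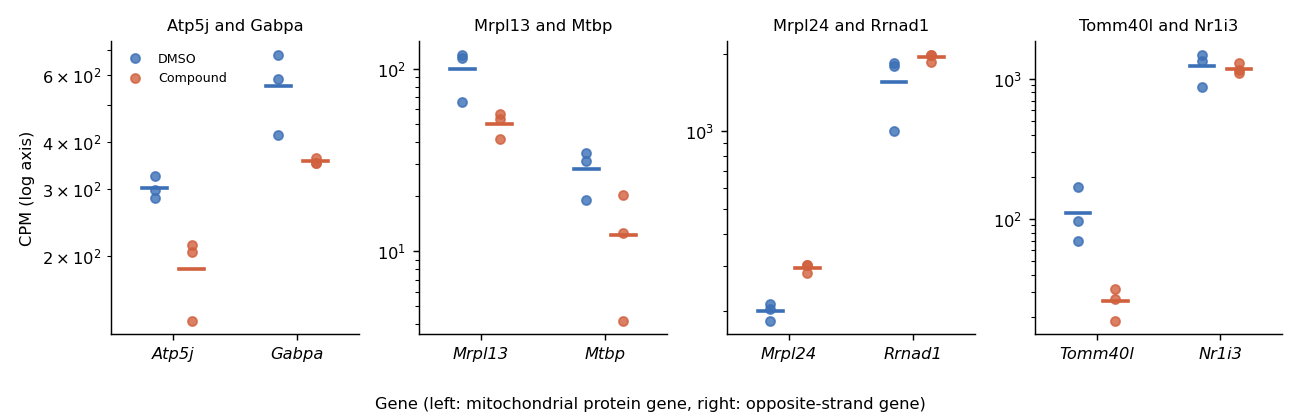
CPM (y axis, logarithmic, scaled separately in each panel) in each library for 4 of the called genes and the gene opposite each (x axis); points are libraries and bars the means of 3. Atp5j and Gabpa are both lower with the compound, whereas Nr1i3 opposite Tomm40l has a log2 change of -0.06.

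Of the 4 lower genes, Atp5j, Mrpl13 and Timm10b are head-to-head with their partner and Tomm40l is tail-to-tail, as is Mrpl24, the gene that was higher. Among the tested genes of the set, 10 were head-to-head and 11 tail-to-tail, and a difference by arrangement was not tested. Among the main partners of the 5 called genes Gabpa passed the threshold, Mtbp, Rrnad1 and Nr1i3 did not, and Arfip2 had too few counts to test. Whether the change of a member differs from that of its partner was not tested.

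The authors' deposited DESeq2 table gave an adjusted p for 51 of the 203 genes, 3 higher and 5 lower at 0.05. These are 15.7% of the 51, against 13.1% of the 4542 genes with an adjusted p in the authors' deposited table (5.37% higher and 7.73% lower), so this share too is near the background. It holds the 5 genes called here, Mrps25 and 2 with too few counts for the present filter, named after their values were seen. Atp5g3, of the membrane ring of ATP synthase, had 3, 2 and 3 counts in DMSO and 11, 9 and 9 with the compound, and a log2 change of 1.92 in the authors' deposited table. Ndufaf7, a complex I assembly factor, had 0, 0 and 7 counts in DMSO and 9, 8 and 8 with the compound, with 1.65 in the authors' deposited table. Neither has an annotated exon on the opposite strand.

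Other genes of mitochondrial function were taken from 6 lists with 106 genes in the table. Of these 34 were tested, 3 were higher and 2 lower, and the median log2 change was -0.03. The share that passed, 14.7%, was near the 18.0% of all tested genes (7.50% higher and 10.5% lower), so it is no particular result for the lists. Both lower genes came from the list named regulators, of which 5 were tested. They were Gabpa, which overlaps Atp5j, and Polg, which is overlapped by Fanci. Polg is the mitochondrial DNA polymerase gene and not a transcription factor gene. Polg had 126, 108 and 141 counts in DMSO and 25, 39 and 37 with the compound, a log2 change of -1.29 ± 0.26 (SE; edgeR adjusted p = 0.00264). Of 6 tested assembly factors, Oxa1l, an insertase of the inner membrane overlapped by the amino acid transporter gene Slc7a7, was higher. Its counts were 14, 18 and 18 in DMSO and 33, 66 and 63 with the compound, a log2 change of 2.31 ± 0.34 (adjusted p = 0.000253). Among 9 import and chaperone genes Mtx1, an outer-membrane import gene overlapped by Thbs3, was 1.67-fold higher (adjusted p = 0.00187), and among 12 translation genes Gfm1, the elongation factor G gene overlapped by Lxn, was 1.75-fold higher (adjusted p = 0.0305). Counts filed under Polg, Oxa1l and Mtx1 passed whichever single library was left out. As in the pairs above, which gene of an overlapping pair changed was not tested. Gfm1 lost its call without any single compound library (adjusted p up to 0.136), and without DMSO replicate 3 it passed with a log2 change of 0.52, against 0.80. The one tested gene of the electron carrier list, Coq4 of coenzyme Q synthesis, did not pass, with a log2 change of -0.42.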

How the data were processed

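The authors deposited 1 table of raw counts per gene and library for 6 poly-A libraries (100 ng RNA each). The tools STAR 2.3.0e and HTSeq 0.6.0 and the build mm10 are named in the submitters' processing notes; neither annotation release nor strand setting is given there. Of 24725 rows, 22753 identifiers were used once each. The log2 fold changes and adjusted p-values in the authors' deposited table are DESeq2's, per the file headers, and appear only where so named. Counts were tested across the whole table with edgeR 4.0.16 (R 4.3.3): TMM, filterByExpr, quasi-likelihood F test, two-sided, Benjamini-Hochberg at 0.05, on 2440 genes. SE is the absolute log2 change over the square root of F; 95% intervals use the fit's degrees of freedom. The steps were tested on simulated data. DESeq2 1.42.0 and other scalings, filters, a replicate block and leaving out each library were the alternatives. Exons and strands came from GENCODE M21 (mm10), which held 96.0% of identifiers, and promoters from RefSeq GRCm38.p6. Figures used Python 3.11.15 and matplotlib 3.10.9. Members and lists were chosen with earlier results of these data known. Genes named by rule had an adjusted p under 0.05, a mean count of at least 50, or the highest count of a tested family (of all members where none was tested), with overlapping rows; others are marked as named after their values were seen. Totals were 493406 to 952813 counts; limits for counts of 0 cover counting error only. One result from the other mitochondrial lists is not reported here.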

Additional observations from a re-analysis of the deposited data

How the results depend on the processing

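The count of genes lower with the compound was 4, and 3 with DESeq2, its size factors, upper-quartile scaling, no filter, a replicate block or only genes averaging 50 counts, a minimum that leaves Mrpl13 out. It was 1 at an adjusted p of 0.01 and 1 to 4 when single libraries were left out. The count of genes higher was 1, and 0 with no filter, with a replicate block and at an adjusted p of 0.01, and 0 to 1 when single libraries were left out. Without DMSO replicate 3 the same 5 genes passed; without DMSO replicate 2 or any single compound library Tomm40l alone did. Over all tested genes 183 were higher and 255 lower, against 80 and 128 at an adjusted p of 0.01, and leaving out single libraries gave 93 to 259 higher and 143 to 359 lower, the most without DMSO replicate 3. Scaled to total counts, the summed level of the 203 genes was 8906 CPM in DMSO and 7215 CPM with the compound, instead of 8547 and 7998.

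Signs turned in 8 refits of uncalled genes. The log2 change of Cox6c stood at 0.0146 with DESeq2 and with its size factors, at 0.0216 with upper-quartile scaling and between -0.15 and 0.10 when single libraries were left out. Mrpl47 ranged from -0.21 to 0.039, the latter without DMSO replicate 1, and Ndufs3 from -0.084, without DMSO replicate 3, to 0.45. The replicate block gave Mrpl24 an adjusted p of 0.0601 and Timm10b 0.0670. No pairing by replicate number was seen. Deviations of same-numbered libraries correlated at -0.01, 0.02 and 0.02, and DMSO replicate 1 correlated best with compound replicate 2 (0.04). With 3 libraries per group these values cannot decide whether the numbers pair the samples. With no filter the median log2 change of all genes was -0.15, against 0.02. The causes of these changes were not tested. The filter on low counts left 179 of the 203 genes untested.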
